A study of Arabidopsis thaliana with 47 samples.

Results

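RITF1, UPB1 and the NADPH oxidases RBOHA to RBOHG and RBOHI are genes that set reactive oxygen levels in the Arabidopsis thaliana root. They were taken by locus code from the deposited count table, where they are 10 of 36823 loci. RNA was sequenced from the dissected meristematic zone of the root, its growing tip with the dividing cells, of seedlings grown for 6 days and then treated for 24 h. The groups crossed the genotypes plt2, plt2/gPLT2-GFP (here gPLT2) and plt2/gPLT2C212S-GFP (here gPLT2C212S) with mock, 0.3 nM RGF1 and 5 nM RGF1, which gave 9 groups and 47 samples, each from 50 root sections. Each group had n = 5, except n = 6 for gPLT2 and gPLT2C212S at 5 nM. All groups carry the plt2 mutation, so none is a wild type. The transgenes are genomic PLT2 fused to GFP, and C212S is a cysteine-to-serine substitution in the usual notation. How many independent lines stand behind each transgene is not given in the sources used here, so a difference between the genotypes cannot be told apart from a difference between the lines used. Nothing in the labels says that replicates came from separate cultures, so p-values measure the spread between these samples, which may be technical.

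RGF1 is a sulfated peptide hormone that acts through receptor kinases of the RGI family and a MAP kinase cascade to keep the meristem active and to stabilise the PLETHORA transcription factors, among them PLT2. RITF1 (RGF1-INDUCIBLE TRANSCRIPTION FACTOR 1, AT2G12646) is a PLATZ family factor of this pathway, known to raise superoxide and lower hydrogen peroxide across the meristem. UPB1 (UPBEAT1, AT2G47270) is a bHLH factor known to repress class III peroxidases in the transition zone, where cells leave division for elongation. RBOH proteins are plasma membrane NADPH oxidases that pass electrons to oxygen outside the cell and so make superoxide. RBOHC (AT5G51060, also RHD2) is the oxidase of root hair growth, RBOHD (AT5G47910) that of the immune oxidative burst, and RBOHF (AT1G64060) serves abscisic acid responses and lignin deposition in the Casparian strip.

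The 250 bases before the annotated gene start are shown for the 4 members with the most called differences, which the results below turn on. The sequence is RefSeq's, assembly TAIR10.1, written 5′ to 3′ on the strand of the gene. Capitals mark CANNTG, the E-box core that many bHLH factors bind. RITF1 lies at chr2:5169304-5169553 on the minus strand, UPB1 at chr2:19412329-19412578 on the minus strand, RBOHC at chr5:20762462-20762711 on the minus strand and RBOHF at chr1:23769524-23769773 on the plus strand.
RITF1: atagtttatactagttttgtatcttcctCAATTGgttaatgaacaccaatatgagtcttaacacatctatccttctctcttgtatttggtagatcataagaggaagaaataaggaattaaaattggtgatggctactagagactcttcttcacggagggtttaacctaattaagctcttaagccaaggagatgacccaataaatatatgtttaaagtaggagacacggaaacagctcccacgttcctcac
UPB1: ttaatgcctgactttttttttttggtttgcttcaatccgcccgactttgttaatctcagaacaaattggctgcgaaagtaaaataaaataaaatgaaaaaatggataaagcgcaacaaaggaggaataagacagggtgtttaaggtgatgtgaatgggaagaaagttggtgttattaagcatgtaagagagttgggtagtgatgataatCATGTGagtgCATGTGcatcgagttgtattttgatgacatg
RBOHC: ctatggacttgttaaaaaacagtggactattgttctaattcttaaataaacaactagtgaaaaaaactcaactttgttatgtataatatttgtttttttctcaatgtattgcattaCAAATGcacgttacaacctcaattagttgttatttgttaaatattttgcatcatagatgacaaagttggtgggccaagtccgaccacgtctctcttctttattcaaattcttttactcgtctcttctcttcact
RBOHF: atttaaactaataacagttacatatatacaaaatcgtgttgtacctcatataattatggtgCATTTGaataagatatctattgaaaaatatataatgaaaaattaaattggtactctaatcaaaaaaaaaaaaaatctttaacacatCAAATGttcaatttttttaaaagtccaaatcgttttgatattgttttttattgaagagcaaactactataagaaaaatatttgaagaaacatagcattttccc
RITF1 held 1 match (CAATTG), UPB1 held 2 (CATGTG), RBOHC held 1 (CAAATG), and RBOHF held 2 (CATTTG and CAAATG, the same motif on either strand). In UPB1 both matches lay within 41 bases of the gene start. CANNTG reads the same on both strands and occurred in 55.3% of 27443 Arabidopsis promoters of this length. CAAATG or its complement CATTTG occurred in 18.8% of them. None of the 4 windows held CACGTG, which was in 6.49% of all promoters. A match is a string of letters and was not tested as a binding site.

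Libraries held 7739807 to 10332541 counts. A pair of mitochondrial loci took 45.0% to 70.4% of them, and 2652354 to 5116600 counts were left once 14 ribosomal RNA and organelle loci were set aside. Levels of one gene across groups are given as CPM, counts scaled by that remainder and TMM factors, as mean ± SD. A floor of 3 counts then equals 0.585 to 1.13 CPM, a limit that covers counting error only. PLT2 itself was read as a check on the presence of a transgene. It stood at 5.69 to 7.14 CPM in the plt2 groups, at 34.4 to 54.6 CPM in the gPLT2 groups and at 50.9 to 76.2 CPM in the gPLT2C212S groups (group means). Counts per gene cannot tell gPLT2 from gPLT2C212S, so that distinction rests on the labels. Meristem markers (CYCB1;1, KNOLLE, CDKB2;1, PLT1 and WOX5 summed) had reads in every group, between 84.3 and 198 CPM per library, with WOX5 too low to test. The median correlation of a library with its own group ran from 0.953 to 0.976, and plt2 mock replicate 5 was the lowest. Calls are edgeR quasi-likelihood tests at an adjusted p under 0.05 over all genes tested.

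RBOHC and RBOHF made up most of the RBOH transcripts of this tissue. Levels between genes are compared as the deposited FPKM, which is scaled by gene length. Of the mean FPKM summed over the 8 RBOH members, RBOHC held 42.2% and RBOHF 40.0%. RBOHD held 7.0%, RBOHI 4.6%, RBOHE 3.01%, RBOHB 2.07%, RBOHG 0.731% and RBOHA 0.373%. The summed RBOH FPKM was highest in plt2 under mock at 35.7 ± 8.83 and lowest in gPLT2 at 5 nM at 10.4 ± 2.71. It went from 35.7 to 32.6 and 19.9 FPKM across mock, 0.3 nM and 5 nM in plt2, and from 26.0 to 16.2 and 10.4 FPKM in gPLT2. In gPLT2C212S it was 11.5, 14.7 and 13.9 FPKM. In plt2 and gPLT2 most of the fall came from RBOHC, whose share of the sum was 59.4% ± 6.64 in plt2 under mock and 22.8% ± 7.66 in gPLT2 at 5 nM. The share of RBOHF was 32.9% in plt2 under mock and 52.3% in plt2 at 5 nM. The remaining oxidases RBOHH and RBOHJ, known from pollen tubes, never passed 2 and 5 counts in a library.

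**Figure D1:**
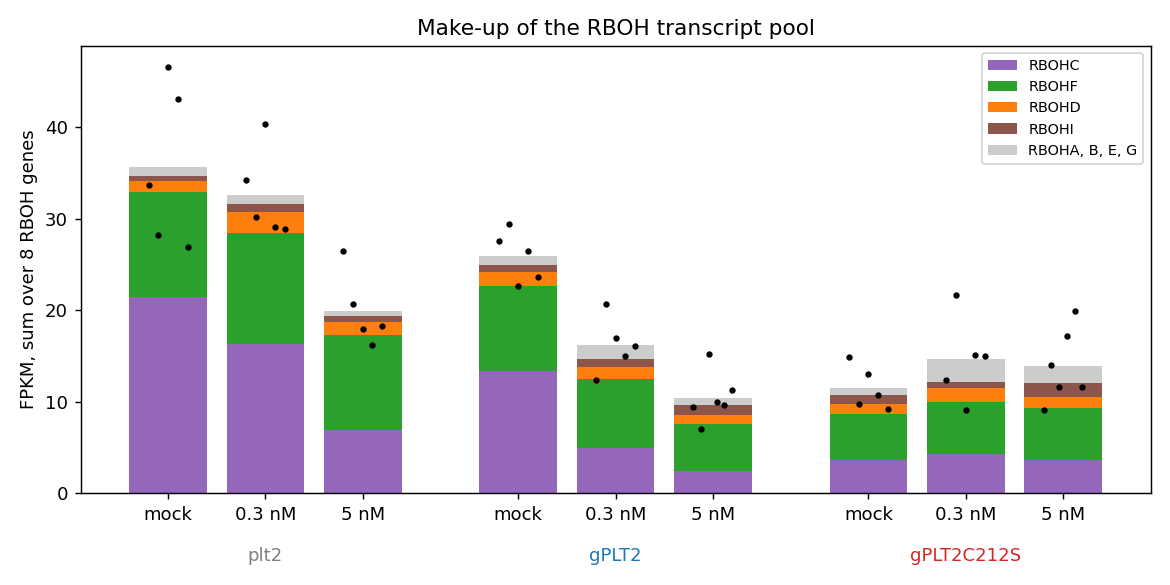
Deposited FPKM of the RBOH genes in each group, stacked as group means, with points for the sum in each library (n = 5, or 6 for gPLT2 and gPLT2C212S at 5 nM). The sum was 35.7 FPKM in plt2 under mock and 10.4 FPKM in gPLT2 at 5 nM, and the RBOHC part differed most between groups.

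Of the 10 members, 8 passed the filter on low counts in at least 1 of 24 comparisons, and RBOHA and RBOHG passed in none. Against mock, 0.3 nM RGF1 changed 0 of 5 tested members in plt2 (0.0504% of all tested genes were called), 1 of 5 in gPLT2 (15.2%) and 1 of 6 in gPLT2C212S (22.9%). At 5 nM it was 2 of 5 members in plt2 (9.44% of all genes), 4 of 5 in gPLT2 (47.5%) and 1 of 6 in gPLT2C212S (40.2%). In plt2 at 0.3 nM, where edgeR called 0 members, 1 (RBOHD) had an unadjusted p under 0.05 and DESeq2 called 0. Without RGF1 edgeR called 0 of 5 members between gPLT2 and plt2 (2.54%), with 1 (RBOHC) at an unadjusted p under 0.05 and 1 called by DESeq2. Also under mock, gPLT2C212S differed from plt2 in 4 of 6 (18.7%) and from gPLT2 in 4 of 6 (8.77%). The same 4 genes made up both counts: RITF1 higher, and UPB1, RBOHC and RBOHF lower in gPLT2C212S. The median log2 difference of the tested members was -0.66 in gPLT2C212S against gPLT2 under mock, where that of all genes was 0.01.

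RITF1 rose with 5 nM RGF1 in gPLT2, and in gPLT2C212S it was already high under mock. In gPLT2 under mock it stood at 21.8, 26.7, 21.1, 22.1 and 20.5 CPM, and at 5 nM at 45.8 to 59.6 CPM with a median of 53.1. Every 5 nM library lay above every mock library, with means of 53.2 ± 5.78 and 22.4 ± 2.47 CPM. The log2 fold change was 1.21 (SE 0.12, edgeR adjusted p = 9.39e-08). At 0.3 nM the gPLT2 libraries held 25.4, 33.7, 32.6, 27.7 and 24.3 CPM and overlapped the mock libraries. Their mean of 28.8 CPM lay between the other means, and the difference from mock did not pass the test (0.35, 95% interval 0.05 to 0.66, edgeR adjusted p = 0.106).

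In gPLT2C212S under mock RITF1 stood at 35.1, 32.7, 42.6, 41.8 and 46.7 CPM, above every mock library of plt2 (23.8, 19.4, 16.3, 13.0 and 28.9 CPM) and of gPLT2. The log2 difference was 0.97 (SE 0.18, edgeR adjusted p = 0.00132) against plt2 and 0.83 (SE 0.14, edgeR adjusted p = 0.000339) against gPLT2. RGF1 at 5 nM then took gPLT2C212S from 39.8 ± 5.73 to 50.2 ± 4.34 CPM, a log2 change of 0.31 (SE 0.12, edgeR adjusted p = 0.0347), with overlapping groups. This call ended when any of mock replicates 1 and 2 or 5 nM replicates 1, 3 and 6 was left out (highest adjusted p = 0.114), and under total-count scaling, without the count filter and with all groups in 1 fit (highest adjusted p = 0.498). At 5 nM gPLT2C212S and gPLT2 did not differ by the test, with a difference of -0.05 and a 95% interval from -0.25 to 0.15. The rise was thus smaller in gPLT2C212S than in gPLT2 by 0.90 on the log2 scale, and that difference was called (interaction -0.90, SE 0.16, edgeR adjusted p = 0.000503).

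In plt2, which lacks a PLT2 transgene, RITF1 was 20.3 ± 6.28 CPM under mock, 20.2 ± 4.39 CPM at 0.3 nM and 29.1 ± 4.42 CPM at 5 nM. The 5 nM libraries held 28.1, 34.1, 24.3, 33.2 and 25.6 CPM and overlapped the mock libraries. The change from mock missed the threshold (log2 0.54, 95% interval 0.14 to 0.93, edgeR adjusted p = 0.0820), and without mock replicate 5 it passed at 0.0125. It also passed without the count filter, with the mitochondrial covariate and with all groups in 1 fit (lowest adjusted p = 0.0123, highest 0.388 over the alternatives). Between 0.3 and 5 nM the rise in plt2 was called (0.51, SE 0.15, edgeR adjusted p = 0.0222). That call ended without 0.3 nM replicate 1 or 4 or 5 nM replicate 2 or 4. Over the 9 groups RITF1 spanned 2.63-fold, from plt2 at 0.3 nM to gPLT2 at 5 nM. Of the 8 pairs of neighbours in that order, 7 overlapped; the gap lay between plt2 at 5 nM and gPLT2C212S at 0.3 nM.

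**Figure D2:**
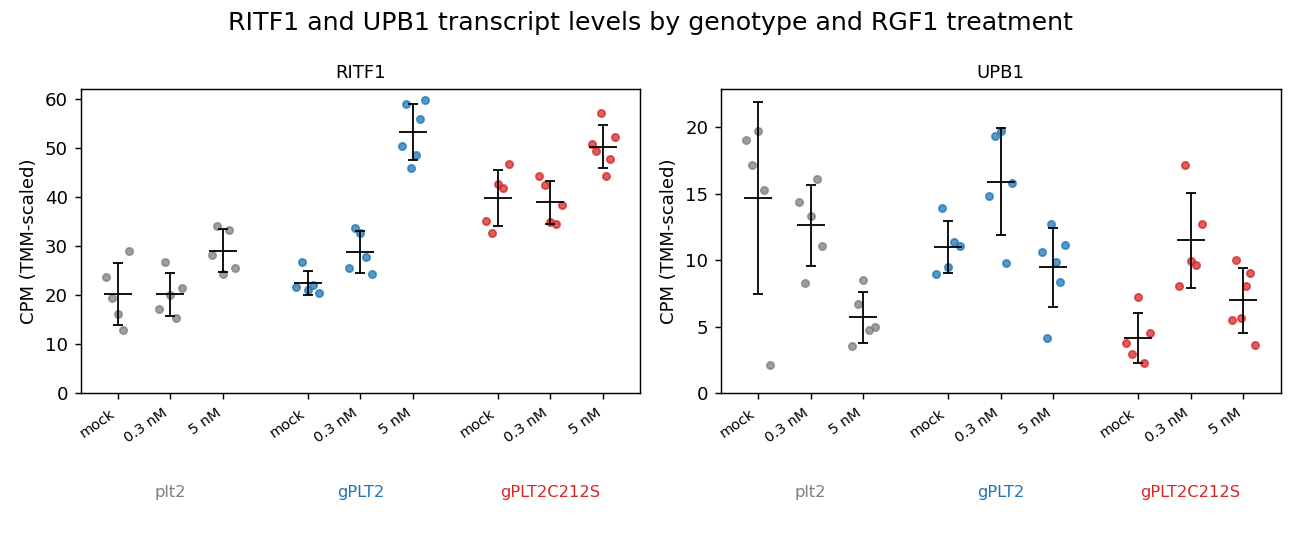
CPM of RITF1 and UPB1 in each library (points) by genotype and RGF1 dose, with the mean and SD of each group as bars (n = 5, or 6 for gPLT2 and gPLT2C212S at 5 nM). RITF1 was 22.4 CPM in gPLT2 under mock against 39.8 CPM in gPLT2C212S under mock, and 53.2 and 50.2 CPM at 5 nM, while UPB1 had 1 mock library of plt2 at 2.12 CPM.

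UPB1 was lowest in gPLT2C212S under mock, rose there with 0.3 nM RGF1, and fell in plt2 with 5 nM RGF1. Under mock gPLT2C212S held 3.79, 2.97, 7.22, 2.29 and 4.55 CPM, and gPLT2 held 9.01, 13.9, 9.50, 11.4 and 11.1 CPM. These groups did not overlap, and the log2 difference was -1.37 (SE 0.27, edgeR adjusted p = 0.00213). Against plt2 under mock it was -1.78 (SE 0.43, edgeR adjusted p = 0.00836), a call lost with the mitochondrial share of the library as a covariate.

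With 0.3 nM RGF1 UPB1 rose in gPLT2C212S to 8.04, 17.2, 9.95, 9.64 and 12.7 CPM, above every mock library of that line. The log2 change was 1.41 (SE 0.28, edgeR adjusted p = 0.00109). At 5 nM the libraries of gPLT2C212S held 3.62 to 10.001 CPM with a median of 6.89, and the change from mock was 0.69 (95% interval 0.06 to 1.33, edgeR adjusted p = 0.0766). In plt2 UPB1 fell at 5 nM, to 3.59, 6.76, 8.51, 4.78 and 4.98 CPM from 19.1, 17.1, 19.8, 15.3 and 2.12 CPM under mock. The log2 change was -1.33 (SE 0.40, edgeR adjusted p = 0.0423). Mock replicate 5 was far below the other 4 mock libraries of plt2, and without it the change was -1.64 with an adjusted p of 3.9e-05. Leaving out any other library except 5 nM replicate 3 ended the call. From 0.3 to 5 nM, a comparison that does not use the mock libraries, UPB1 also fell in plt2 (-1.15, SE 0.25, edgeR adjusted p = 0.00277).

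In gPLT2 UPB1 was 11.0 ± 1.94 CPM under mock, 15.9 ± 4.03 CPM at 0.3 nM and 9.48 ± 2.98 CPM at 5 nM. Neither dose passed the test against mock, with a log2 change of 0.53 (95% interval 0.11 to 0.95) at 0.3 nM and -0.27 (95% interval -0.74 to 0.21) at 5 nM. The fall from 0.3 to 5 nM was called (-0.79, SE 0.23, edgeR adjusted p = 0.0164) and was lost without 0.3 nM replicate 2. The response to 5 nM differed between gPLT2C212S and plt2 by 2.07 (SE 0.54, edgeR adjusted p = 0.00964). Between gPLT2C212S and gPLT2 the same difference was 0.96 (95% interval 0.15 to 1.76, edgeR adjusted p = 0.162). Over the 9 groups UPB1 spanned 3.83-fold, and all 8 pairs of neighbours in the order of levels overlapped.

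PER39, PER40 and PER57 are class III peroxidases known as targets that UPB1 represses, and they were read beside it. In plt2 at 5 nM all 3 were lower than under mock, as they were in gPLT2 at 5 nM. Of all genes, 9.44% and 47.5% were called in either direction in these comparisons. PER39 went from 111 ± 26.8 to 46.9 ± 3.69 CPM in plt2 and from 67.4 ± 13.4 to 3.43 ± 1.83 CPM in gPLT2 (log2 -4.29, SE 0.22, edgeR adjusted p = 1.68e-11). In gPLT2C212S PER39 fell from 36.6 ± 4.28 to 3.39 ± 1.64 CPM (log2 -3.44, edgeR adjusted p = 2.15e-12). PER40 was near the floor in both transgenic lines at 5 nM, at 0.347 CPM in gPLT2 and 0.125 CPM in gPLT2C212S, where it was not tested, so its fitted fold change of -5.16 (log2) in gPLT2 depends on the prior count. PER57 fell in gPLT2 at 5 nM (-2.47, SE 0.44, edgeR adjusted p = 0.000117) and rose in gPLT2C212S (1.46, SE 0.46, edgeR adjusted p = 0.0122). Under mock all 3 peroxidases were called lower in gPLT2C212S than in plt2 and than in gPLT2, and so was UPB1. There 18.7% and 8.77% of all genes were called in either direction. In plt2 at 5 nM UPB1 and all 3 peroxidases were called lower than under mock.

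RBOHC spanned 8.45-fold between group means, the widest range of the 5 members tested in every comparison. It was highest in plt2 under mock, fell with RGF1 in plt2 and in gPLT2, and stood low in gPLT2C212S at every dose. In gPLT2 the mock libraries held 47.9, 48.4, 37.1, 44.2 and 44.0 CPM. At 0.3 nM they held 9.0034, 25.2, 17.4, 10.7 and 19.4 CPM, and at 5 nM 2.38 to 15.7 CPM with a median of 8.40. Neither dose overlapped mock, and the log2 changes were -1.45 (SE 0.20, edgeR adjusted p = 2.21e-05) and -2.45 (SE 0.24, edgeR adjusted p = 9.63e-08). In these bulk samples fewer cells that express RBOHC and less RBOHC RNA per cell cannot be told apart.

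In plt2 RBOHC was 63.6, 61.1, 100, 86.7 and 44.7 CPM under mock and 34.4, 25.6, 17.7, 17.2 and 20.6 CPM at 5 nM. The groups did not overlap, and the log2 change was -1.60 (SE 0.22, edgeR adjusted p = 0.000211). A fall of RBOHC at 5 nM was therefore present without a PLT2 transgene. At 0.3 nM the plt2 libraries held 47.2 to 66.2 CPM, and the change from mock was -0.38 (95% interval -0.77 to 0.01, edgeR adjusted p = 0.688). The response to 0.3 nM was larger in gPLT2 than in plt2 by 1.05 log2 units in the fall (interaction -1.05, SE 0.30, edgeR adjusted p = 0.0319). That call ended when any of 9 of 20 libraries was left out: mock replicates 1 and 2 and 0.3 nM replicates 1 and 3 of plt2, and mock replicates 1, 2 and 4 and 0.3 nM replicates 1 and 4 of gPLT2. It also ended under total-count scaling, with the mitochondrial covariate and with all groups in 1 fit (highest adjusted p = 0.142). At 5 nM the responses of gPLT2 and plt2 differed by -0.83 (95% interval -1.57 to -0.09, edgeR adjusted p = 0.148, and 0.0101 without the count filter).

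In gPLT2C212S RBOHC held 13.3, 11.6, 11.956, 12.3 and 11.8 CPM under mock, the smallest SD relative to its mean of any group of the 8 tested members. This was lower than in plt2 by 2.53 on the log2 scale (log2 -2.53, SE 0.20, edgeR adjusted p = 6.31e-07) and lower than in gPLT2 by 1.85 (log2 -1.85, SE 0.14, edgeR adjusted p = 5.39e-08), with no overlap. With RGF1 the libraries spread more widely, over 4.68 to 26.9 CPM at 0.3 nM and 5.19 to 22.3 CPM at 5 nM. The log2 changes were 0.18 (95% interval -0.43 to 0.80) and -0.03 (95% interval -0.55 to 0.49). With the mitochondrial covariate the first of these was 0.75 and was called (edgeR adjusted p = 0.0460). The response to 5 nM differed from that of gPLT2 by 2.42 (SE 0.39, edgeR adjusted p = 0.000159) and from that of plt2 by 1.61 (SE 0.36, edgeR adjusted p = 0.003). At 0.3 nM it differed from gPLT2 by 1.62 (SE 0.39, edgeR adjusted p = 0.0208). At 5 nM the level of RBOHC did not differ between gPLT2C212S and gPLT2 by the test (0.58, 95% interval -0.11 to 1.26, edgeR adjusted p = 0.370). Between gPLT2 and plt2 under mock the difference was -0.66 (SE 0.18, edgeR adjusted p = 0.0676), and it was called by DESeq2, without the filter on low counts, with total-count scaling and with the mitochondrial covariate.

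**Figure D3:**
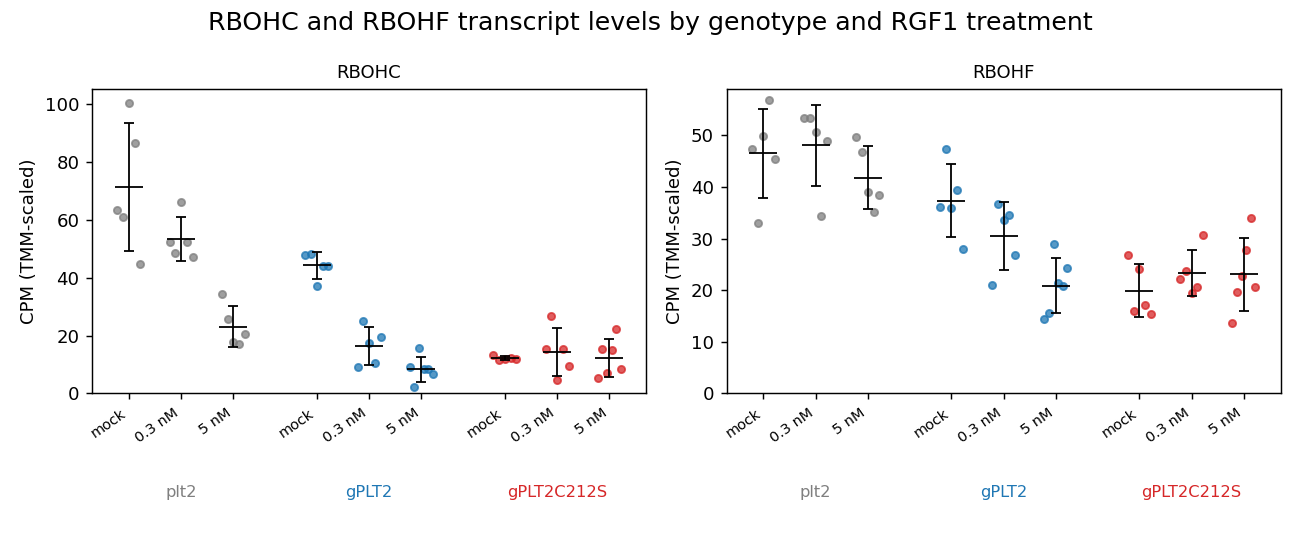
CPM of RBOHC and RBOHF in each library (points) by genotype and RGF1 dose, with the mean and SD of each group as bars. RBOHC went from 44.3 CPM under mock to 8.44 CPM at 5 nM in gPLT2, in plt2 from 71.3 to 23.1 CPM, and was 12.2 CPM at both in gPLT2C212S, while RBOHF was called lower at 5 nM than under mock in gPLT2, at 20.9 against 37.4 CPM.

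RBOHF followed the same order of lines with smaller changes. In gPLT2 it was 36.0, 47.5, 35.9, 39.4 and 28.0 CPM under mock and 14.5 to 29.0 CPM at 5 nM with a median of 21.0. In each group 1 library overlapped the other, at 28.0 CPM under mock and 29.0 CPM at 5 nM. The log2 change was -0.88 (SE 0.17, edgeR adjusted p = 0.000259). In plt2 RBOHF was 46.5 ± 8.70 CPM under mock and 41.8 ± 6.13 CPM at 5 nM, a change of -0.12 (95% interval -0.43 to 0.18). In gPLT2C212S it was 19.9 ± 5.22 CPM under mock and 23.1 ± 7.03 CPM at 5 nM, a change of 0.18 (95% interval -0.22 to 0.58).

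Under mock RBOHF was lower in gPLT2C212S than in plt2 (-1.21, SE 0.18, edgeR adjusted p = 0.000202) and than in gPLT2 (-0.90, SE 0.18, edgeR adjusted p = 0.00211). The libraries of gPLT2C212S held 26.9, 16.1, 24.2, 17.2 and 15.5 CPM and overlapped neither line. At 5 nM both transgenic lines were below plt2, gPLT2 by 1.05 (log2 -1.05, SE 0.16, edgeR adjusted p = 1.89e-05) and gPLT2C212S by 0.86 (log2 -0.86, SE 0.16, edgeR adjusted p = 6.37e-05). The response to 5 nM differed between gPLT2C212S and gPLT2 by 1.06 (SE 0.28, edgeR adjusted p = 0.0202), a call lost under total-count scaling. Between gPLT2 and plt2 it differed by -0.73 (SE 0.24, edgeR adjusted p = 0.0479), and that call ended under total-count scaling, with the mitochondrial covariate and in 14 of 21 fits that left out 1 library. The 9 group means of RBOHF spanned 2.41-fold, and all 8 pairs of neighbours overlapped.

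Both transcription factors and both main oxidases thus separated gPLT2C212S from gPLT2 under mock, and none of them did at 5 nM. At 5 nM members were called in 3 of 6 between gPLT2 and plt2 (38.5% of all genes), in 4 of 6 between gPLT2C212S and plt2 (45.0%) and in 0 of 6 between gPLT2C212S and gPLT2 (4.27%). In the last of these edgeR gave 0 members at an unadjusted p under 0.05, DESeq2 called 0, and total-count scaling called 1, UPB1. Between gPLT2 and plt2 at 5 nM UPB1 narrowly missed the threshold (0.68, 95% interval 0.12 to 1.24, edgeR adjusted p = 0.052). UPB1 was called there with DESeq2 size factors, total-count scaling, no count filter or the mitochondrial covariate (lowest adjusted p = 0.0204). At 0.3 nM the counts were 3 of 5 (31.3%), 3 of 5 (46.4%) and 0 of 6 (7.39%) for the same pairs of lines. The 3 at that dose were RITF1 higher, and RBOHC and RBOHF lower than in plt2. For gPLT2 the RITF1 call ended without 0.3 nM replicate 1 or 4 of plt2 or 2 or 3 of gPLT2. Between the transgenic lines 3 members (RITF1, UPB1 and RBOHF) had an unadjusted p under 0.05 in edgeR at 0.3 nM, and DESeq2 called 0. RITF1 was 38.9 ± 4.40 CPM in gPLT2C212S against 28.8 ± 4.23 CPM in gPLT2 at 0.3 nM, without overlap, and missed the threshold (0.42, 95% interval 0.15 to 0.69, edgeR adjusted p = 0.0544).

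The step from 0.3 to 5 nM called 3 of 5 members in plt2 (18.9% of all genes), 4 of 6 in gPLT2 (23.2%) and 2 of 8 in gPLT2C212S (10.1%). RITF1 was higher at 5 nM in all 3 lines, by 0.51, 0.87 and 0.40 on the log2 scale in plt2, gPLT2 and gPLT2C212S. In gPLT2C212S its direction turned under total-count scaling (-0.005, edgeR adjusted p = 0.984), and the call ended with the mitochondrial covariate, with all groups in 1 fit, and without 0.3 nM replicate 3 or 4 or 5 nM replicate 3. UPB1 and RBOHC were lower at 5 nM than at 0.3 nM in plt2 and gPLT2, and RBOHF in gPLT2. In gPLT2 the RBOHC call ended without 0.3 nM replicate 2 or 5, and the RBOHF call without 0.3 nM replicate 2 or 3 or 5 nM replicate 2 and under total-count scaling (0.0984). For the differences between lines in the response to 0.3 nM, 1 of 7 members was called for gPLT2 minus plt2 (5.99%), 1 of 7 for gPLT2C212S minus plt2 (11.0%) and 1 of 8 for gPLT2C212S minus gPLT2 (1.99%). For 5 nM they were 2 of 6 (9.76%), 2 of 7 (12.4%) and 3 of 7 (4.82%). The 3 in the last comparison were RITF1, RBOHC and RBOHF. Dose comparisons within a line share their mock, 0.3 nM or 5 nM samples, so these counts are not independent of one another.

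**Figure D4:**
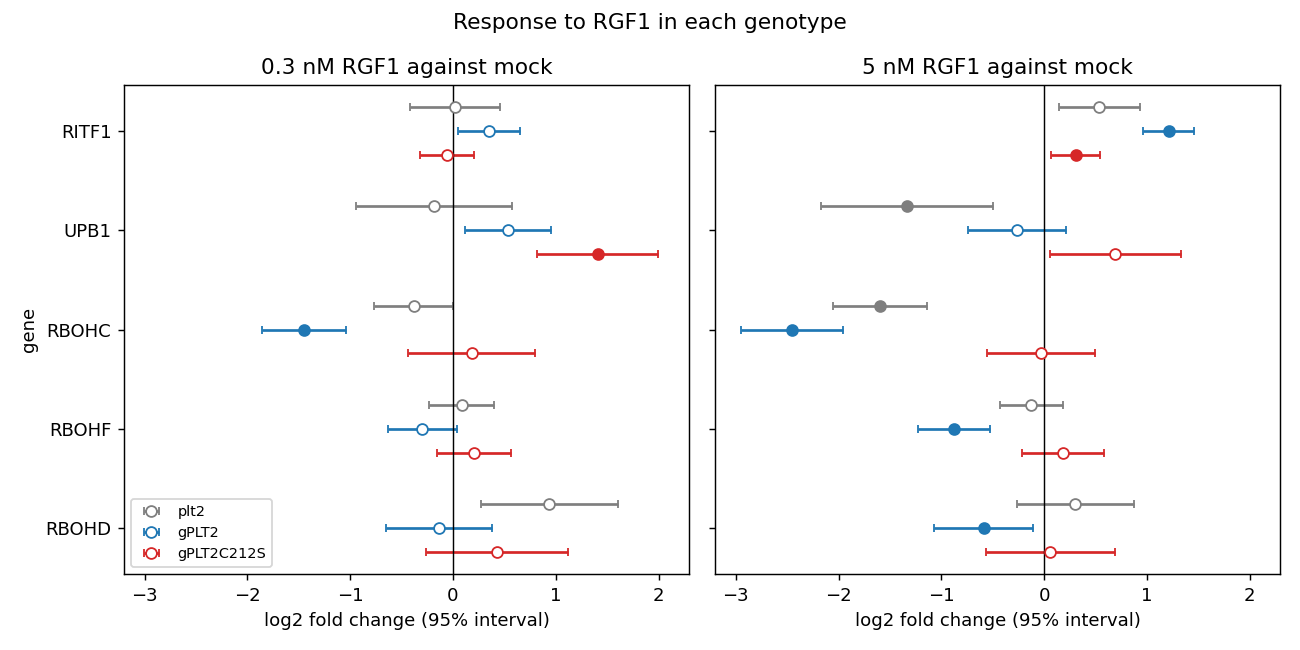
Log2 fold change of the 5 members tested in every comparison, at 0.3 nM (left) and 5 nM (right) RGF1 against mock in each genotype. The 95% intervals were derived from the edgeR F test, and filled points have an adjusted p under 0.05. At 5 nM RBOHC was -2.45 in gPLT2, -1.60 in plt2 and -0.03 in gPLT2C212S, and RITF1 was 1.21, 0.54 and 0.31.

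The other oxidases were low, and few of their differences passed the test. RBOHD stood at 3.71 to 8.25 CPM in group means. In gPLT2 it held 5.90, 5.34, 5.79, 5.53 and 4.80 CPM under mock and 2.98 to 4.47 CPM at 5 nM with a median of 3.76, without overlap. The fall was called at the margin (-0.59, SE 0.23, edgeR adjusted p = 0.0427). It was lost by DESeq2, by total-count scaling, without the count filter, with the mitochondrial covariate and with all groups in 1 fit. It was also lost in 8 of 11 fits that left out 1 library, those without mock replicate 1, 2, 3 or 4 or 5 nM replicate 1, 2, 3 or 5. In plt2 RBOHD was 4.36 CPM under mock and 8.25 CPM at 0.3 nM, where 1 library reached 14.9 CPM.

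RBOHI was highest in gPLT2C212S at 5 nM, at 3.78 to 5.94 CPM with a median of 4.92. In plt2 at 5 nM it held 3.29, 0.845, 3.15, 0.717 and 2.61 CPM, below every one of them. The log2 difference was 1.26 (SE 0.34, edgeR adjusted p = 0.00388). From 0.3 to 5 nM in gPLT2C212S it rose by 1.15 (SE 0.33, edgeR adjusted p = 0.0265). That call was lost without 0.3 nM replicate 1, 3 or 4 or 5 nM replicate 2 or 4, under total-count scaling and with the mitochondrial covariate. RBOHE, known from the anther tapetum, held between 0.237 and 8.43 CPM per library and was called in none of the 6 comparisons that tested it (the lowest adjusted p was 0.0856). In gPLT2C212S against plt2 at 5 nM, where the count filter kept it out, RBOHE was called higher without the filter (log2 1.77, edgeR adjusted p = 0.0028), by DESeq2 (0.00505) and with all groups in 1 fit (0.0146).

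RBOHB, known from seeds, was near the floor except in the transgenic lines at 0.3 nM and in gPLT2C212S at 5 nM (1.41 CPM). In gPLT2C212S its raw counts were 3, 0, 2, 1 and 0 under mock and 8, 11, 15, 22 and 11 at 0.3 nM, without overlap. In gPLT2 they were 1, 3, 1, 1 and 7 under mock and 18, 8, 5, 8 and 7 at 0.3 nM, and in plt2 at 0.3 nM they were 2, 2, 1, 2 and 2. The count filter kept RBOHB out of the dose comparisons with mock. Without the filter gPLT2C212S at 0.3 nM was called against mock (edgeR adjusted p = 2e-05, DESeq2 adjusted p = 0.000219), and gPLT2 was not (0.0536 and 0.0607), although with all groups in 1 fit it was (0.0255). At 0.3 nM both transgenic lines were called above plt2 without the filter (0.0136 for gPLT2 and 0.000283 for gPLT2C212S). The fall from 0.3 to 5 nM in gPLT2 was called as well (log2 -2.21, edgeR adjusted p = 0.00304). At 5 nM gPLT2C212S was called above its mock (0.0434, with 0.0603 by DESeq2) and above plt2 (0.0348). The RBOHB response to 0.3 nM was larger in gPLT2C212S than in plt2 without the filter (3.46, edgeR adjusted p = 0.0172). That difference was also called by DESeq2 (0.013) and with all groups in 1 fit (0.00852). The mean was 0.347 CPM under mock and 3.19 CPM at 0.3 nM in gPLT2C212S. RBOHG and RBOHA were at or under the floor in most libraries. Without the filter RBOHG was called higher at 5 nM than under mock in gPLT2C212S (log2 2.54, edgeR adjusted p = 0.0422), and by DESeq2 it was not (0.0554). RBOHA, RBOHB, RBOHE and RBOHG each overlap a protein-coding gene on the opposite strand, and whether the counting used strand is not given in the sources used here. No 50-base window of any member's exons occurs elsewhere in the TAIR10.1 genome.

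**Figure D5:**
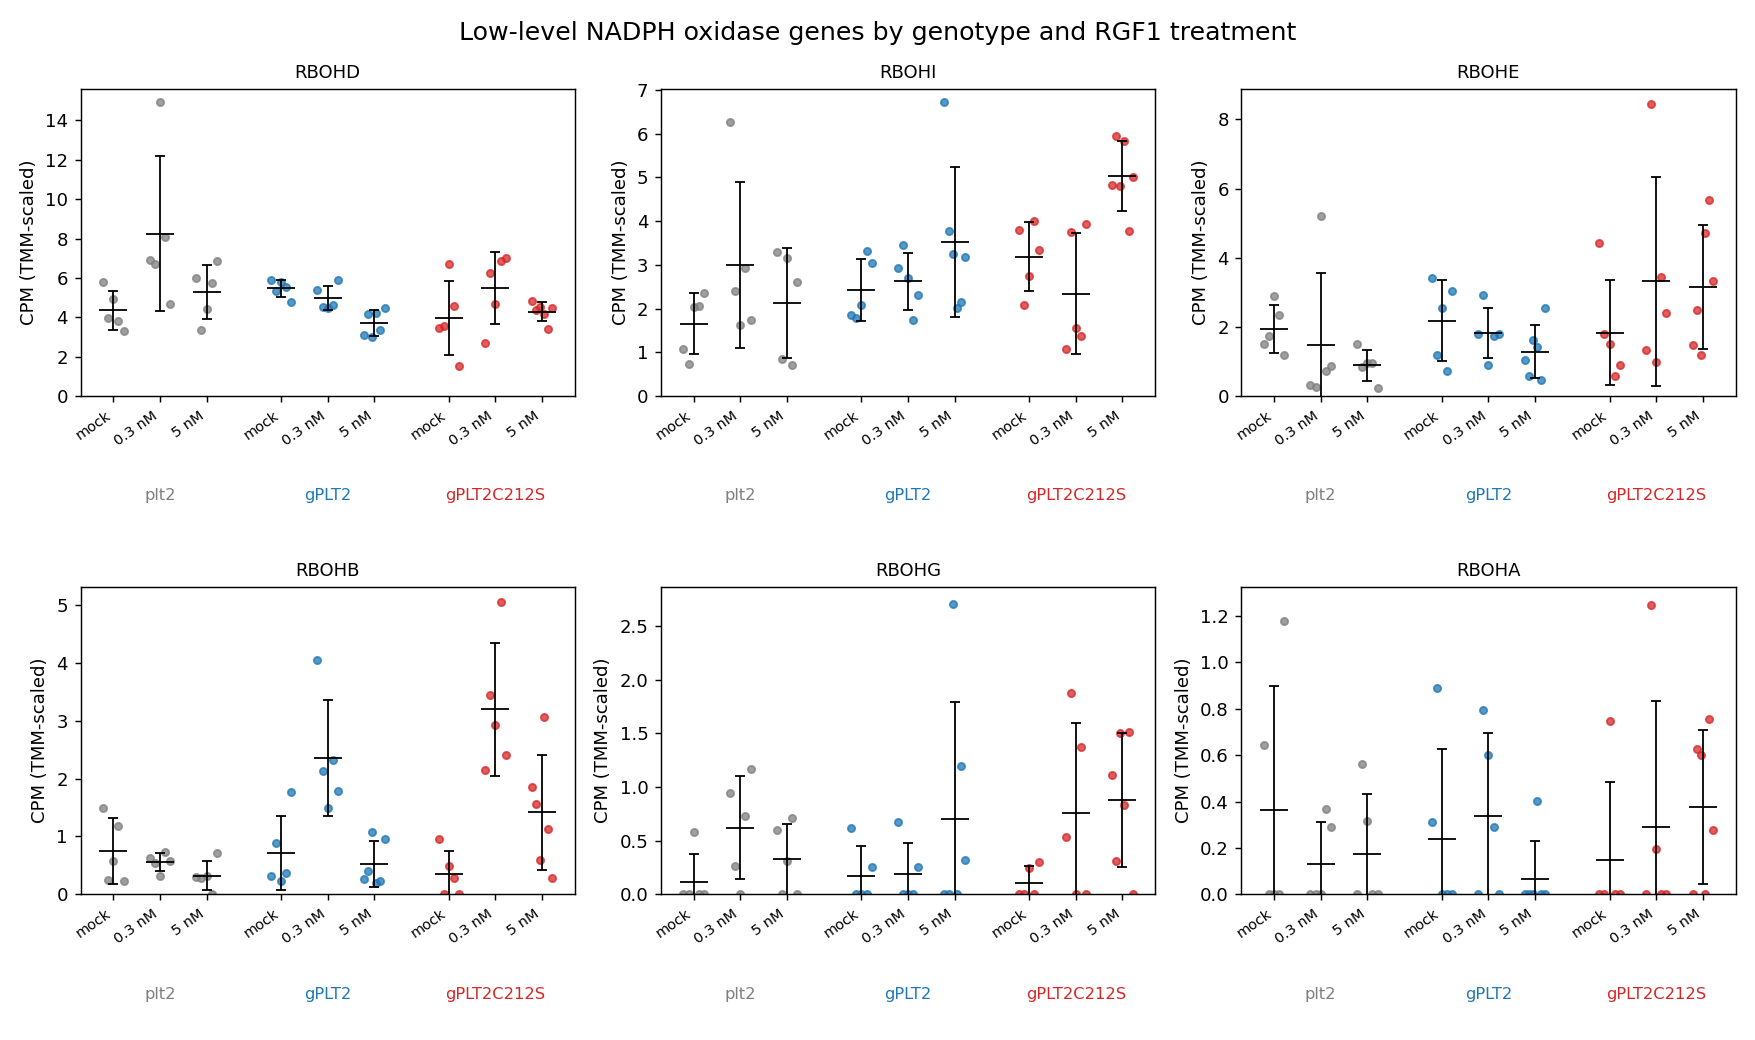
CPM of the 6 less abundant RBOH genes in each library (points) by genotype and RGF1 dose, with the mean and SD of each group as bars and a separate vertical scale for each gene. RBOHB averaged 2.35 CPM in gPLT2 and 3.19 CPM in gPLT2C212S at 0.3 nM, and RBOHI averaged 5.03 CPM in gPLT2C212S at 5 nM.

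Upstream of RITF1, the RGF1 receptors and MAP kinases moved in both directions. Of 10 genes tested, 3 were higher and 0 lower at 5 nM than under mock in plt2, 4 higher and 3 lower in gPLT2, and 4 higher and 4 lower in gPLT2C212S, beside 9.44%, 47.5% and 40.2% of all genes called in either direction in these comparisons. Their median log2 change in gPLT2 was 0.05, beside 0.03 for all genes. The receptor gene RGI1 rose from 106 to 208 CPM in gPLT2 (0.93, SE 0.10, edgeR adjusted p = 3.62e-07) and by 0.71 in gPLT2C212S. RGI3 fell in both, by 1.29 in gPLT2 (log2 -1.29, SE 0.13, edgeR adjusted p = 1.83e-07) and by 1.19 in gPLT2C212S (log2 -1.19). RGI2 rose by 0.69 in gPLT2, and RGI4 fell in gPLT2C212S from 80.8 to 46.0 CPM (log2 -0.84, edgeR adjusted p = 1.29e-06).

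Genes that act on RBOH proteins, 17 in all, include kinases that phosphorylate them, calcium sensors, and the ROP GTPase module of root hairs. At 5 nM against mock 0 were higher and 5 lower in plt2, 3 higher and 6 lower in gPLT2, and 4 higher and 5 lower in gPLT2C212S, where 9.44%, 47.5% and 40.2% of all genes were called. GEF3, which places the ROP domain that marks a root hair site, fell in all 3 lines, from 11.3 ± 1.06 to 0.924 ± 0.248 CPM in plt2 and from 8.39 ± 2.49 to 0.299 ± 0.196 CPM in gPLT2. In gPLT2C212S it went from 5.97 ± 4.23 to 0.539 ± 0.729 CPM. In the transgenic lines its 5 nM means lay under the floor of 3 counts. CPK11, a calcium-dependent kinase, fell in gPLT2 (-0.88, SE 0.14, edgeR adjusted p = 4.69e-05), and so did the calcium sensor CBL1 (-0.96, SE 0.21, edgeR adjusted p = 0.000999). BIK1, the kinase that activates RBOHD in immunity, rose in gPLT2C212S from 4.04 to 10.004 CPM (1.27, SE 0.23, edgeR adjusted p = 8.99e-05). CPK4 rose there too (0.72, SE 0.12, edgeR adjusted p = 4.45e-05).

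RITF1's family, the PLATZ genes, numbered 11 besides RITF1, of which 7 or 8 were tested. At 5 nM 0 were higher and 1 lower in plt2 (7 tested), 4 higher and 1 lower in gPLT2 (8 tested), and 5 higher and 0 lower in gPLT2C212S (7 tested). The share of all genes called was 9.44%, 47.5% and 40.2%. Their median log2 change was 0.44 in gPLT2 and 0.75 in gPLT2C212S, beside 0.03 and -0.001 for all genes. AT1G21000 rose from 5.90 to 11.9 CPM in gPLT2 (0.96, SE 0.22, edgeR adjusted p = 0.00103) and from 3.51 to 9.93 CPM in gPLT2C212S (1.44, SE 0.30, edgeR adjusted p = 0.000487). AT1G76590 rose by 1.20 in gPLT2 and 1.10 in gPLT2C212S, AT5G46710 by 0.86 in gPLT2 and AT1G32700 by 0.75 in gPLT2C212S (log2).

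Genes with the group pattern closest to each member were sought among 14369 genes by the Pearson correlation of log2 mean CPM over the 9 group means, given as a description since many genes differ between the same groups. For RITF1 they were HST (0.987), AT4G32190 (0.986) and AT1G79060 (0.984). For UPB1 they were AT5G21090 (0.961), the aquaporin PIP2A (0.950) and PSBY (0.949). RBOHC was closest to the aquaporin TIP4;1 (0.995), WIH3 (0.989) and AT5G05600 (0.986). RBOHF was closest to AT5G44380 (0.995), CYP89A5 (0.986) and AT3G57420 (0.985), and RBOHD to PP2C74 (0.922), RGA1 (0.907) and AT2G02910 (0.896).

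Markers of root hair and differentiating epidermis moved with RBOHC in part. The 6 marker genes EXP7, COBL9, RHD6, RSL4, PRP3 and LRX1 summed to 29.6 to 60.6 CPM per library in plt2 under mock and 11.983 to 28.4 CPM at 5 nM. In gPLT2 they summed to 24.9 to 39.4 CPM under mock and 11.7 to 17.9 CPM at 5 nM. In gPLT2C212S, where RBOHC did not fall, they summed to 23.2 to 36.6 CPM under mock and 9.26 to 21.5 CPM at 5 nM. At 5 nM against mock the count filter kept only 3 of these 6 genes in plt2, 1 in gPLT2 and 2 in gPLT2C212S. Called lower were 1, 1 and 2 of them, beside 9.44%, 47.5% and 40.2% of all genes called in either direction. EXP7 was at 0 in every library of gPLT2 under mock. RHD6, the most abundant, fell at 5 nM in gPLT2 (-0.77, edgeR adjusted p = 0.000346) and in gPLT2C212S (-0.92, edgeR adjusted p = 0.000362), and COBL9 fell in plt2. Root cap markers (SMB, BRN1 and BRN2 summed) went from 169 to 310 CPM per library under mock to 46.3 to 112 CPM at 5 nM in gPLT2, and from 195 to 223 CPM to 58.5 to 126 CPM in gPLT2C212S. All 3 were called lower in both lines. In plt2 0 of 3 were called, with sums of 167 to 425 CPM under mock and 126 to 249 CPM at 5 nM. Of the 4 meristem markers tested at 5 nM in gPLT2, CYCB1;1, KNOLLE and CDKB2;1 were called higher. PLT1 was called lower (18.6 to 7.37 CPM, log2 -1.36, edgeR adjusted p = 3.12e-06). The summed meristem list was 141 to 171 CPM per library at 5 nM in gPLT2 against 84.3 to 119 CPM under mock. In gPLT2C212S 3 of 4 were called higher and 1 lower, with sums of 160 to 198 CPM at 5 nM against 112 to 141 CPM under mock. In plt2 0 of 4 were called, with sums of 118 to 139 CPM at 5 nM against 117 to 148 CPM under mock. Xylem markers (VND7, IRX3 and XCP1 summed) went from 6.72 to 10.7 CPM per library under mock to 8.34 to 19.2 CPM at 5 nM in gPLT2, and from 4.29 to 8.47 CPM to 17.0 to 32.0 CPM in gPLT2C212S, with both tested genes called higher in each. In plt2 XCP1, the 1 tested, was called lower. Endodermis markers (CASP1, ESB1 and MYB36 summed) held 7.41 to 12.5 CPM under mock and 7.40 to 19.2 CPM at 5 nM in gPLT2, with 0 of 2 called, and 6.73 to 10.3 CPM and 9.75 to 17.1 CPM in gPLT2C212S, with ESB1 called higher. In plt2 they held 6.95 to 9.64 CPM under mock and 5.99 to 9.25 CPM at 5 nM, with 0 of 1 called. The part of these shifts in tissue markers in the changes of RITF1, UPB1, RBOHC and RBOHF was not tested.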

How the data were processed

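RNA-seq of the Arabidopsis root meristematic zone was analysed in 47 samples of 9 groups, each sample assigned by its own labels and matched to its column by name (0 columns unmatched). The authors deposited raw read counts per locus and FPKM (fragments per length and depth) for 25722 of the 36823 loci. Per the submitters' processing notes the tools were HISAT2 2.1.0, featureCounts, Subread 2.0.3 and DESeq 1.34.0, with build TAIR10. Implied FPKM lengths equalled the RefSeq TAIR10.1 exon lengths of all 10 members. The deposited FPKM was used only to set levels of different genes side by side.

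Counts were tested in R 4.3.3 with edgeR 4.0.16 (TMM factors, filterByExpr with a minimum count of 10, quasi-likelihood F test, Benjamini-Hochberg adjustment over all genes of the fit), with only the groups compared in each of 24 fits. Log2 differences between lines in a response are contrasts over 4 groups. CPM levels were computed from the deposited counts without 14 ribosomal RNA and organelle loci. Every pair of replicates differed by more than sampling noise (chi-square per degree of freedom 2.51 to 22.2), so none was merged. Alternatives were DESeq2 1.42.0 size factors, total-count scaling, no count filter, the DESeq2 Wald test, all groups in 1 fit, a replicate block, the mitochondrial share as a covariate, and each library left out in turn. The fitting step was tested on simulated counts.

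All members are named whether called or not. From each pathway list a gene is named if it has 1 of the 3 smallest adjusted p at 5 nM against mock in gPLT2 or gPLT2C212S. Markers and PLT2 are named besides. The members and lists were chosen with earlier results of these data known.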

Additional observations from a re-analysis of the deposited data

Results flagged for a closer look

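A sample far from the others of its group was found in 7 of 72 groups of tested members, where chance flags about 1 in 20. UPB1 stood at 2.12 CPM in plt2 mock replicate 5 against 15.3 to 19.8 CPM in the other 4. Its change at 5 nM in plt2 without that library is given above. Without that library edgeR also called UPB1 lower in gPLT2 than in plt2 under mock (adjusted p = 0.0483, against 0.627 with all libraries). The gPLT2 minus plt2 difference in the UPB1 response to 0.3 nM was then called too (edgeR adjusted p = 0.0396, against 0.346). So was that in the response to 5 nM (edgeR adjusted p = 0.0074, against 0.159), which was also called without the count filter. RITF1 stood at 26.7 CPM in gPLT2 mock replicate 2. RBOHC at 66.2 CPM and RBOHE at 5.19 CPM stood apart in the same library, plt2 0.3 nM replicate 3, and RBOHF at 34.5 CPM in plt2 0.3 nM replicate 4. RBOHI stood apart at 6.27 CPM in plt2 0.3 nM replicate 1 and at 6.72 CPM in gPLT2 5 nM replicate 1.

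Responses to RGF1 differed between genotypes in 10 of 42 tests of the difference itself (edgeR interaction terms, log2). Of all genes, 1.99% to 12.4% were called in each of these interactions. The tests share mock and dose samples, so they are not independent of one another. For RITF1 at 5 nM the response of gPLT2 exceeded that of plt2 by 0.69 (SE 0.22, adjusted p = 0.0410), and that of gPLT2C212S differed from gPLT2 by -0.90. The first of these calls was lost under total-count scaling, with the mitochondrial covariate and in 13 of 21 fits that left out 1 library (mock 1, 2 or 5 or 5 nM 1, 3 or 5 of plt2, mock 1, 3, 4 or 5 or 5 nM 2, 5 or 6 of gPLT2). For UPB1 gPLT2C212S differed from plt2 by 1.58 at 0.3 nM (SE 0.51, adjusted p = 0.0440) and by 2.07 at 5 nM. The call at 0.3 nM was lost with the mitochondrial covariate and in 16 of 20 fits that left out 1 library, all but those without plt2 mock 5, plt2 0.3 nM 4, gPLT2C212S mock 3 and gPLT2C212S 0.3 nM 1. For RBOHC at 0.3 nM gPLT2 differed from plt2 by -1.05 and gPLT2C212S from gPLT2 by 1.62. At 5 nM RBOHC differed by 1.61 between gPLT2C212S and plt2 and by 2.42 between gPLT2C212S and gPLT2. For RBOHF at 5 nM gPLT2 differed from plt2 by -0.73 (lost without mock 1, 2 or 5 or 5 nM 1, 2, 3 or 5 of plt2, or mock 1, 2 or 4 or 5 nM 1, 2, 4 or 5 of gPLT2) and gPLT2C212S from gPLT2 by 1.06.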

How the results depend on the processing

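Total-count scaling keeps the abundant mitochondrial loci in the library size and shifted the median log2 change of all genes by over 0.1 in 18 of 24 comparisons (from -0.42 to 0.53), while DESeq2 size factors shifted it by at most 0.02. Under it the rise of RITF1 from 0.3 to 5 nM in gPLT2C212S reversed to -0.00523, where the median of all genes was -0.41. In that comparison 61 genes were called higher and 5309 lower, against 598 and 1029 with TMM. The share of calls that were higher moved by over 10 percentage points in 19 of the 24 comparisons under total-count scaling, for example from 51.6% to 3.5% between gPLT2C212S and gPLT2 at 5 nM, and in 0 with DESeq2 size factors.

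Genes called moved by over 1.5 times in some settings. Under total-count scaling they numbered 29 (plt2 0.3 nM against mock), 994 (gPLT2 0.3 nM against mock), 1743 (gPLT2 5 against 0.3 nM), 5370 (gPLT2C212S 5 against 0.3 nM), 853 (gPLT2C212S against gPLT2, mock), 660 (the same at 0.3 nM), 2653 (the same at 5 nM) and 3948 (gPLT2 against plt2, 5 nM). For differences in response they were 457 (gPLT2 minus plt2) and 3988 (gPLT2C212S minus plt2) at 0.3 nM, and 651, 1271 and 259 (gPLT2 minus plt2, gPLT2C212S minus plt2 and gPLT2C212S minus gPLT2) at 5 nM. Without the count filter they were 164 (plt2 0.3 nM), 911 (gPLT2 against plt2, mock), 1125 (gPLT2C212S against gPLT2, 5 nM), 1522 (0.3 nM response, gPLT2 minus plt2) and 651 (0.3 nM response, gPLT2C212S minus gPLT2). DESeq2 gave 31 (plt2 0.3 nM) and 694 (gPLT2 against plt2, mock). With the mitochondrial share they were 4 (plt2 0.3 nM), 2702 (plt2 5 nM), 2047 (gPLT2C212S 0.3 nM), 2132 (gPLT2C212S against gPLT2, mock), and 332 and 660 (0.3 nM responses, gPLT2 and gPLT2C212S minus plt2). With all groups in 1 fit they were 30 (plt2 0.3 nM), 2329 (plt2 5 nM), 1145 (gPLT2 against plt2, mock) and 1562 (0.3 nM response, gPLT2 minus plt2).

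Members called also moved. Under total-count scaling they were 0 (gPLT2C212S 5 nM against mock), 1 (gPLT2 against plt2, mock), 1 (gPLT2C212S against gPLT2, 5 nM), 0 and 2 (0.3 nM responses, gPLT2 and gPLT2C212S minus plt2) and 0 (5 nM response, gPLT2 minus plt2). Without the count filter, which lets more members into the fit, they were 2 in gPLT2C212S at 0.3 nM, at 5 nM and for the 0.3 nM response against plt2, 1 (gPLT2 against plt2, mock) and 4 (5 nM response, gPLT2 minus plt2). DESeq2 gave 2 (gPLT2C212S 0.3 nM), 1 (gPLT2 against plt2, mock) and 2 (0.3 nM response, gPLT2C212S minus plt2). With the mitochondrial share they were 2 (gPLT2C212S 0.3 nM), 1 (gPLT2C212S 5 against 0.3 nM), 1 (gPLT2 against plt2, mock), 1 (gPLT2C212S against gPLT2, 0.3 nM), and 0 for the responses of gPLT2 minus plt2 at either dose. With all groups in 1 fit they were 2 (gPLT2 and gPLT2C212S at 0.3 nM), 1 (gPLT2C212S 5 against 0.3 nM), 5 (either transgenic line against plt2, 0.3 nM), and 0 and 2 (0.3 nM responses, gPLT2 and gPLT2C212S minus plt2). Except where a setting's own construction is named, the cause was not tested.

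The replicate numbers did not pair the samples: no comparison had every same-numbered pair correlated above 0.1. With the replicate block the genes called were 15 (plt2 0.3 nM), 130 (gPLT2 against plt2, mock) and 430 (gPLT2C212S against gPLT2, 5 nM), and the members called 1 (gPLT2C212S against gPLT2, 0.3 nM) and 0 (0.3 nM response, gPLT2C212S minus plt2, and 5 nM response, gPLT2 minus plt2). Calls it ended were RITF1 (adjusted p = 0.0841) in gPLT2C212S and RBOHD (0.0663) in gPLT2 at 5 nM against mock, RITF1 (0.0691) and RBOHF (0.0535) in the 5 nM response of gPLT2 minus plt2, and UPB1 (0.0558) in the 0.3 nM response of gPLT2C212S minus plt2. It also gave calls for UPB1 (0.0401) in gPLT2C212S at 5 nM against mock and RITF1 (0.0497) in gPLT2C212S against gPLT2 at 0.3 nM.

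Leaving out 1 library in turn, the genes called ranged from 5 to 35 (0.3 nM against mock in plt2), 904 to 2356 (5 nM against mock in plt2), 1522 to 3164 (0.3 nM against mock in gPLT2), 1925 to 3369 (5 nM against 0.3 nM in plt2) and 1084 to 1646 (5 nM against 0.3 nM in gPLT2C212S). They ranged from 170 to 605 (gPLT2 against plt2 under mock), 915 to 1997 (gPLT2C212S against gPLT2 under mock), 557 to 1800 (the 0.3 nM response of gPLT2 minus plt2), 211 to 518 (the 0.3 nM response of gPLT2C212S minus gPLT2) and 536 to 1286 (the 5 nM response of gPLT2C212S minus gPLT2). Members called ranged from 1 to 3 (5 nM against mock in plt2), 1 to 2 (0.3 nM against mock in gPLT2), 1 to 2 (0.3 nM against mock in gPLT2C212S), 0 to 2 (5 nM against mock in gPLT2C212S) and 1 to 4 (5 nM against 0.3 nM in gPLT2). Member counts ranged from 0 to 2 (5 nM against 0.3 nM in gPLT2C212S), 0 to 2 (gPLT2 against plt2 under mock), 0 to 1 (gPLT2C212S against gPLT2 at 0.3 nM), 0 to 2 (the 0.3 nM response of gPLT2 minus plt2) and 0 to 2 (the 0.3 nM response of gPLT2C212S minus plt2). Member counts ranged from 0 to 3 (the 5 nM response of gPLT2 minus plt2).

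Of 144 fold changes of members, 143 kept their side of the threshold with DESeq2 size factors and 142 with the DESeq2 test. The count was 137 with all groups in 1 fit, 136 without the count filter, 129 with the mitochondrial share and 128 under total-count scaling. A change called in neither fit was counted as kept even where its direction turned. RBOHF from 0.3 to 5 nM in gPLT2C212S, for example, was 0.007 and reached -0.42 among the alternatives without a call. Depth limits RBOHA and RBOHG, with at most 5 and 10 counts in any library, and RBOHB, RBOHE and RBOHI, with at most 22, 27 and 26.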
